A study of Drosophila melanogaster with 2 samples.

Results

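The regions described here are the 233 strongest peaks (232 after overlapping rows are merged) recovered with the GFP-tagged HMG-box protein tHMG1 (CG7045) in adult male Drosophila melanogaster. They were chosen by signal: in the pooled data of both replicates, it was 500 or more. How the signal was calculated was not given in the sources used here. The signal is a value per peak in the authors' deposited list. That list held 4574 peaks that passed a test of agreement between replicates (the irreproducible discovery rate, IDR), so the strong peaks were 5.09% of it. They held 20.3% of its summed signal. The other 4341 IDR peaks, with signals from 90.3 to 499.9, serve as the comparison throughout.

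The study was a chromatin immunoprecipitation with sequencing (ChIP-seq) in whole flies, a method that recovers the DNA fragments attached to a chosen protein. There was 1 group, with 2 biological replicates numbered 1 and 3. All animals were adult males of unknown age from the transgenic line CG7045-GFP, which stably expresses tHMG1 with GFP at its C-terminus, and the precipitation used an antibody to GFP. Chromatin was sonicated to 200 to 800 bp. The labels name a possible control experiment, which was not analysed here. Whole animals were used, so a signal is a mean over all cell types, and a site occupied in few cells cannot be told apart from a site occupied weakly in many. Peak lists carry no expression values, so the labelled tissue could not be checked against cell markers.

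HMG-box proteins bind DNA through its minor groove and bend it. The abundant members of the family bind with little sequence preference and favour DNA that is easily deformed, whereas members of the SRY and SOX branch recognise short A/T-rich sites. tHMG1 and its neighbour tHMG2 are known from the fly testis, where both proteins appear in the nuclei of maturing spermatids while histones are being replaced.

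Sequence is shown first, because the summits of strong peaks were A/T-rich. Each line below gives the 101 bp centred on a summit (the highest point of a peak), read 5′ to 3′ on the plus strand of build dm6 (RefSeq release 6 assembly), with runs of 6 or more A or T bases in capitals. Windows that touched an annotated UTR were left out, and those shown were picked after their values were seen, to include both A/T-rich and GC-richer examples. The first 9 are among the 20 strongest peaks. In the wider 200 bp at the summit, Polr2B has 1 of the 3 lowest GC contents among all strong peaks, and fkh has the highest.
CG14100, chr3L:19590570-19590670: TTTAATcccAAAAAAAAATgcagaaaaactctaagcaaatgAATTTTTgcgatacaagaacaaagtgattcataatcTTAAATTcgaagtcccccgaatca
CG11050, chr2L:6612655-6612755: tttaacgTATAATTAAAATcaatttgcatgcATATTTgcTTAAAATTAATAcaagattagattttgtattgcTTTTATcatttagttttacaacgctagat
Trl, chr3L:14759452-14759552: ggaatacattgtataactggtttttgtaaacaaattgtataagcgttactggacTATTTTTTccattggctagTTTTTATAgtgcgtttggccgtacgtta
CG18428, chr3R:24109137-24109237: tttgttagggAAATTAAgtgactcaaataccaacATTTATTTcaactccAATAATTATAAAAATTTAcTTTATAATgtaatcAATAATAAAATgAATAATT
DNAlig3, chr3R:12403073-12403173: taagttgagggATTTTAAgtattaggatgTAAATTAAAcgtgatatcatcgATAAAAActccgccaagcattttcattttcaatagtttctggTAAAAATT
CG16753, chr3L:3060735-3060835: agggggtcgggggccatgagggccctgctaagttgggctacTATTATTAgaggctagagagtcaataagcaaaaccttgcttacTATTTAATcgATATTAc
CG5611, chr3R:27636120-27636220: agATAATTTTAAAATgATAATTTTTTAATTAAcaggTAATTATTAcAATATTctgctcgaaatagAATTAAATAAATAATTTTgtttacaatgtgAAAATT
Tcs5, chr3L:5139445-5139545: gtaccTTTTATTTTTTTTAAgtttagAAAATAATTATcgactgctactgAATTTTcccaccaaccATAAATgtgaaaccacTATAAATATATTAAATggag
Gapdh2, chrX:15867927-15868027: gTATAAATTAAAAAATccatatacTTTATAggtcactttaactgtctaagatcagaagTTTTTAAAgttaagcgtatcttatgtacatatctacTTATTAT
Polr2B, chr3R:14125639-14125739: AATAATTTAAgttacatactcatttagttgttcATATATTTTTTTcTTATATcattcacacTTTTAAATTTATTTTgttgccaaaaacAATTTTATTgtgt
fkh, chr3R:28585452-28585552: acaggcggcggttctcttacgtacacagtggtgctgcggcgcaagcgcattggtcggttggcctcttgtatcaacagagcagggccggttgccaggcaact

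In the window at CG5611, 68 of the 101 bases lay in such runs and the GC content was 15.8%. At CG18428 it was 59 bases, with a GC content of 18.8%, and at Polr2B 52 bases. The strongest peak, at CG14100, had 30 bases in runs and its longest run was 10 bp. The window near CG16753 had 22 bases in runs and a GC content of 45.5%. The fkh window had no run and a GC content of 60.4%. Long A/T runs were thus not shared by all strong windows.

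The strong peaks ranged in signal from 500.1 to 2864, with a median of 720.5. Only 44 reached 1000 and only 4 reached 2000. These values chose the peaks and are given as a description. The 3 weakest strong peaks were at lncRNA:CR44274 (503.5), sm (502.4) and in an intron of cic (500.1). The 3 strongest peaks below the limit were near lncRNA:CR45643 (499.9), near Gr93d (499.3) and in an intron of Dp1, 224 bp upstream of imd (498.8), so the limit of 500 cut through a continuous range.

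The strongest peak lay 96 bp upstream of CG14100 on chromosome arm 3L, with a signal of 2864 in the pooled list, 1779 in replicate 1 and 1093 in replicate 3. It ranked first in all 3 lists. The second, in an intron of CG11050 on 2L, had signals of 2648, 1575 and 1080 and ranked second in all 3. The third lay inside Trl, the gene of the GAGA factor, a protein that opens chromatin at many fly promoters. This intronic peak had signals of 2023, 1260 and 763.2. The fourth, 25 bp upstream of Ugalt, a UDP-galactose transporter gene on X, had signals of 2007, 1281 and 731.9. The same 2 regions thus headed both replicates by a wide margin.

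The peak between CG18428 and eIF4EHP, whose product is a cap-binding translational repressor, had a pooled signal of 1864, with 1097 in replicate 1 and 771.1 in replicate 3. The peak upstream of mRpL41, a mitochondrial ribosomal protein gene, had 1726, 1091 and 643.2. The peak in an intron of Lk6, a kinase that phosphorylates the cap-binding factor eIF4E, had 1549, 1025 and 520.0. Also among the 20 strongest were eIF6 (1457), encoding a factor that keeps ribosomal subunits apart, and mRpS10 (1359).

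The other peaks among the 20 strongest lay at genes of varied function. DNAlig3, a DNA ligase gene, had an intergenic peak 1284 bp upstream with a signal of 1784. The peak at HmgD and HmgZ, which encode the abundant architectural HMG-box proteins of fly chromatin, had a signal of 1526, with 919.8 in replicate 1 and 596.4 in replicate 3, and lay in an intron of both genes, 558 bp from the start of HmgZ. The remainder were at CG11309 and CG7632 (1577), in an intron of CG32486 near CG16753 (1574), at CG5611 (1490), at CG31145 (1487), between Tcs5, of a tRNA modification complex, and CHMP2B (1470), at cu (1388), in CG12769 (1348), in an intron of ush near cbt, a zinc-finger factor gene (1347), and at Gapdh2, a glycolytic enzyme gene (1334).

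**Figure D1:**
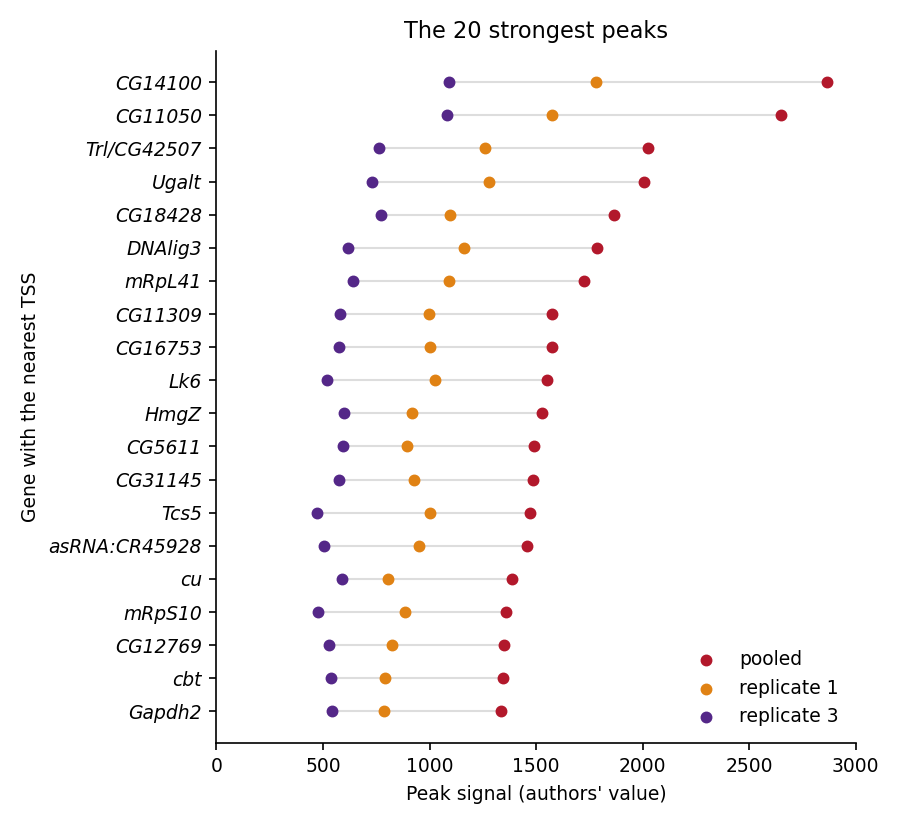
Peak signal (x axis, the authors' value, from 0) of the 20 strongest peaks, one line per peak, named by the gene with the nearest transcription start site. Points give the pooled list, replicate 1 and replicate 3; at CG14100 these are 2864, 1779 and 1093, and in all 20 peaks replicate 1 lies above replicate 3.

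Each replicate's own list ranked the strong peaks alike. Of the 20 strongest peaks, 18 were among the 20 strongest of replicate 1 and 18 among those of replicate 3. Of all 233, the numbers were 220 and 204. Every one of the 233 shared 1 bp or more with a row among the top 4574 of both replicate lists. The background was 76.6% for all IDR peaks, and 75.4% for those under 500. Since the pooled signal was close to the sum of the replicate signals, with a median ratio of 1 among strong peaks, this agreement follows in part from how the peaks were chosen and is given as a description.

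Signals were higher in replicate 1 than in replicate 3 at nearly every strong peak. Replicate 1 ranged from 223.7 to 1779, with a median of 434.8, and replicate 3 from 162.2 to 1093, with a median of 292.5. The median ratio of replicate 1 to replicate 3 was 1.58, from 0.621 to 2.28. The deposited lists were not scaled to each other, and read depth is unknown, so the ratio carries no information on occupancy.

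Only 5 strong peaks (2.15%, exact 95% interval 0.70 to 4.94) were higher in replicate 3, against 17.7% of the peaks under 500. The intron of jim, a zinc-finger factor gene, had 248.0 in replicate 1 and 399.3 in replicate 3. Syp, an RNA-binding protein gene, had 223.7 and 300.5, and the let-7 microRNA locus lncRNA:let7C had 225.3 and 276.0. An intron of spen had 459.5 and 500.4, and bin3 had 249.8 and 270.4. At the other end, Tob had a ratio of 2.28, px 2.24 and the peak between Arl1 and brm 2.22. The ratio varied more among peaks under 500 (median 1.4, SD 0.628) than among strong peaks (median 1.58, SD 0.258). The part of this spread in the share of peaks higher in replicate 3 was not tested.

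**Figure D2:**
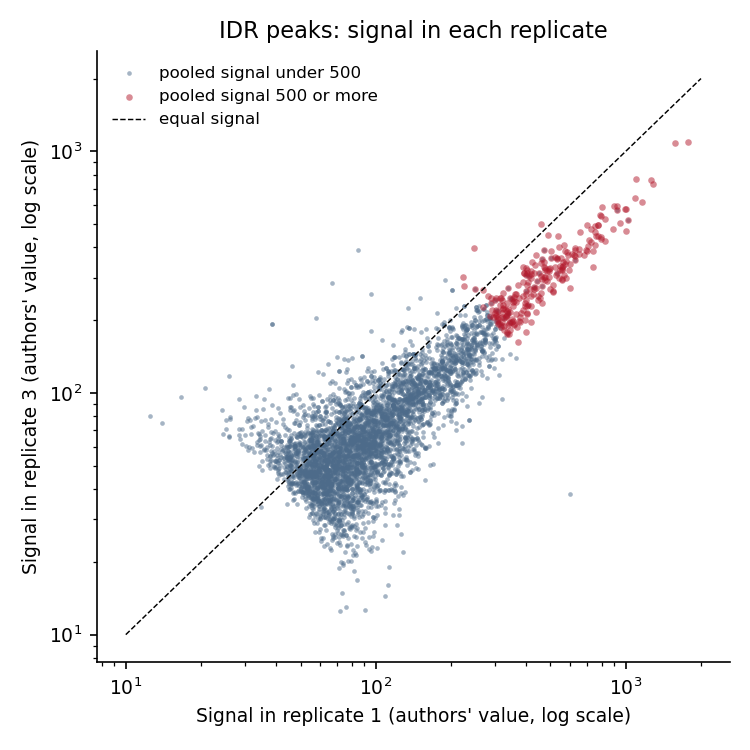
Signal of each IDR peak in replicate 1 (x axis) and replicate 3 (y axis), both the authors' values on log scales; red points are the 233 peaks with a pooled signal of 500 or more and blue points the rest. The dashed line marks equal signal: 5 of the 233 red points lie above it and the others below.

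The pooled summits of strong peaks also lay close to the summit of each replicate. The pooled summit lay a median of 6 bp from the summit of replicate 1 and 6 bp from that of replicate 3, against 17 and 16 bp for peaks under 500. It was within 20 bp in replicate 1 for 88% of strong peaks and 56.6% of the others. In replicate 3 the shares were 77.7% and 54.7%. The pooled list was made from both replicates, so this closeness follows in part from its origin. The distance between the summits of the 2 replicates was not measured.

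Strong peaks lay mostly at promoters. Of the 233 summits, 173 (74.2%, exact 95% interval 68.1 to 79.7) were within 500 bp of an annotated transcription start site (TSS), where the background for all IDR peaks was 57.9% and the share among peaks under 500 was 57.0% (55.5 to 58.5). The 2 intervals did not overlap. They cover counting error over peaks only, and no test was made, since peaks of 1 pair of libraries are not replicates. Summits with a TSS on both strands within that distance made up 30.5% (24.6 to 36.8) of strong peaks and 20.4% (19.2 to 21.7) of the others. Summits with TSSs on a single strand made up 43.8% and 36.6%.

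Introns away from promoters held 46 strong summits (19.7%, 14.8 to 25.4), against 33.3% (31.9 to 34.8) of peaks under 500. Intergenic sites held 10 (4.29%, 2.08 to 7.75, against 6.84%), the strongest near DNAlig3 (1784), CG13323 (945.0) and CG31668 (930.9). There were 2 summits in non-coding exons, at lncRNA:CR46035 inside osa (signal 623.4) and at lncRNA:Vinr (903.8), 1 in the 5′ UTR of spen (534.1) and 1 in the 3′ UTR of by (578.5). The non-coding exon share was 0.858%, against 0.691% of peaks under 500. No strong summit lay in a coding exon away from a promoter, and 0 of 233 allows a share of up to 1.57% (upper exact bound), while 15 of 4341 weaker peaks did. No strong summit lay in an annotated transposable element, but only 7 of 4341 weaker ones (0.161%) did, so this count of 0 says little.

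At promoters, strong summits were set back from the start site. Their median distance from the nearest TSS was 150 bp, against 118 bp for peaks under 500. Of the 173 summits, 95 (54.9%, 47.2 to 62.5) lay 100 to 250 bp upstream, against 32.9% (31.1 to 34.8). Within 50 bp of the TSS there were 12 (6.94%, 3.64 to 11.8), against 20.9% (19.3 to 22.6). Of all strong promoter summits 85.0% were upstream of the nearest TSS, against 77.9%.

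**Figure D3:**
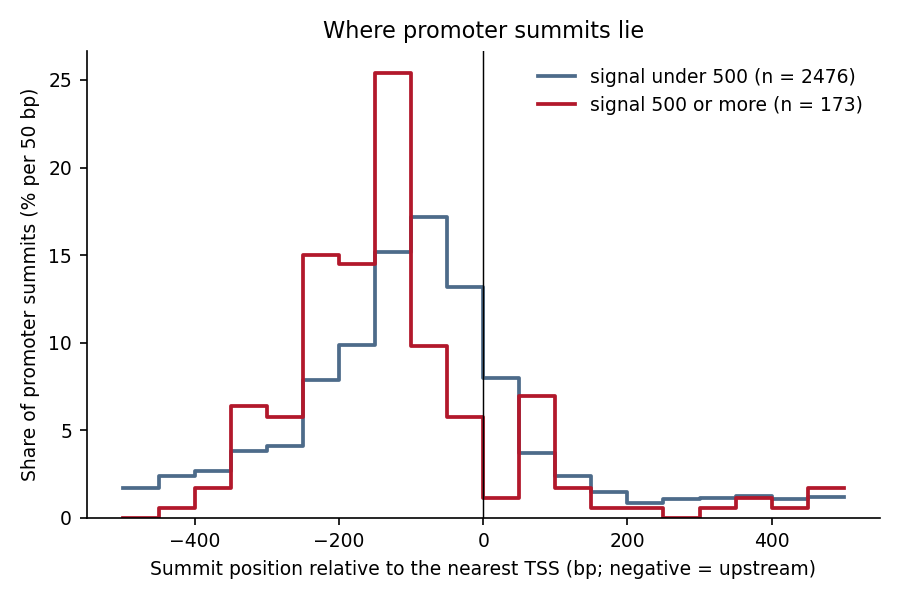
Position of promoter summits relative to the nearest TSS (x axis, bp, negative upstream) as a percentage of promoter summits per 50 bp (y axis), for 173 strong peaks (red) and 2476 weaker ones (blue). Strong summits are most frequent 150 to 100 bp upstream (25.4%), where weaker ones reach 15.2%, and they are rare in the 50 bp after the TSS (1.16% against 8%).

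The shift towards promoters was gradual across signal. The promoter share was 54.7% for peaks with signals of 90 to 150, 57.7% from 150 to 250, 63.6% from 250 to 500, 74.1% from 500 to 1000 and 75% (59.7 to 86.8) for the 44 peaks of 1000 or more. The last 2 shares overlap within their intervals. The share of summits in introns fell over the same steps from 35.3% to 22.7%, with its lowest value, 19.0%, between 500 and 1000.

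**Figure D4:**
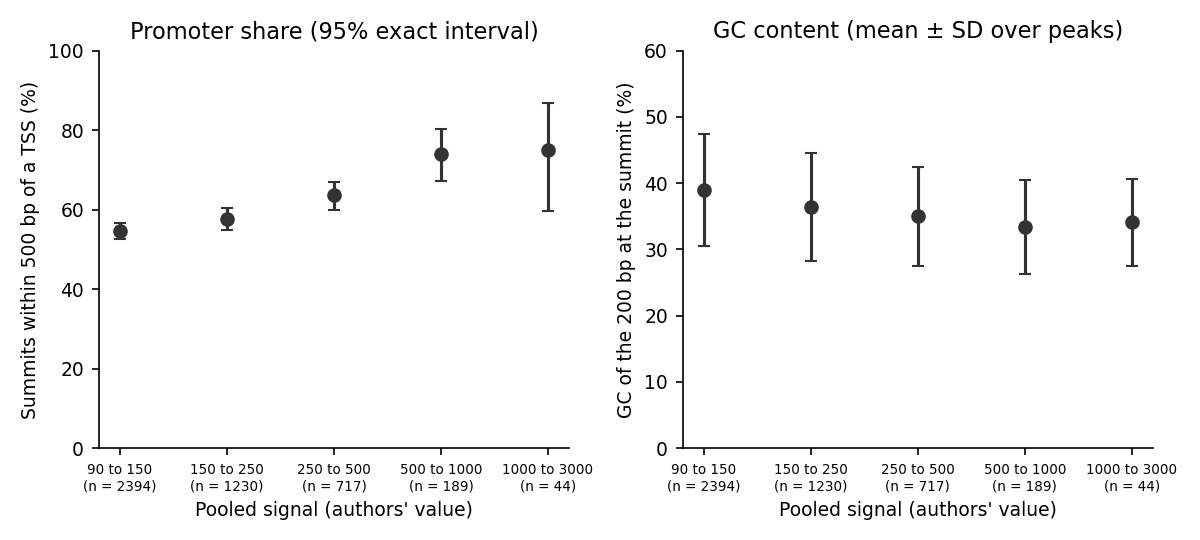
Left, share of summits within 500 bp of a TSS (y axis, %, with exact 95% intervals) and right, GC content of the 200 bp at the summit (y axis, %, mean ± SD over peaks), both by pooled signal (x axis, the authors' value in 5 ranges with the number of peaks). The promoter share rises from 54.7% to 75% and mean GC falls from 39.0% to 33.4%, then is 34.1% in the strongest range.

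Strong summits had lower GC content than the others. Mean GC in the 200 bp at the summit was 33.5% ± 7.0 (SD over 233 peaks), against 37.6% ± 8.36 for peaks under 500. In 200 bp windows centred 150 bp upstream of all 19253 annotated TSSs of coding genes it was 38.3% ± 9.46. In the central 100 bp the 3 means were 29.7%, 36.7% and 37.3%, but in 500 bp they were 39.7%, 39.9% and 39.8%. The difference was therefore confined, among the 3 widths measured, to the 100 and 200 bp windows.

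In steps of 20 bp, mean GC at strong summits was 27.6% ± 0.82 (SEM) just before the summit, 39.9% in the step from 100 to 80 bp before it and 42.7% from 80 to 100 bp after it. At peaks under 500 the lowest step was 36.4% ± 0.23. The pooled summit lay closer to the summit of each replicate at strong peaks (median 6 bp in both) than at the others (17 and 16 bp), and the part of this in the difference was not tested. Among summits 100 to 250 bp upstream of a TSS, mean GC in 200 bp was 32.4% for 95 strong peaks and 34.6% for 815 others, a smaller gap than over all peaks.

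**Figure D5:**
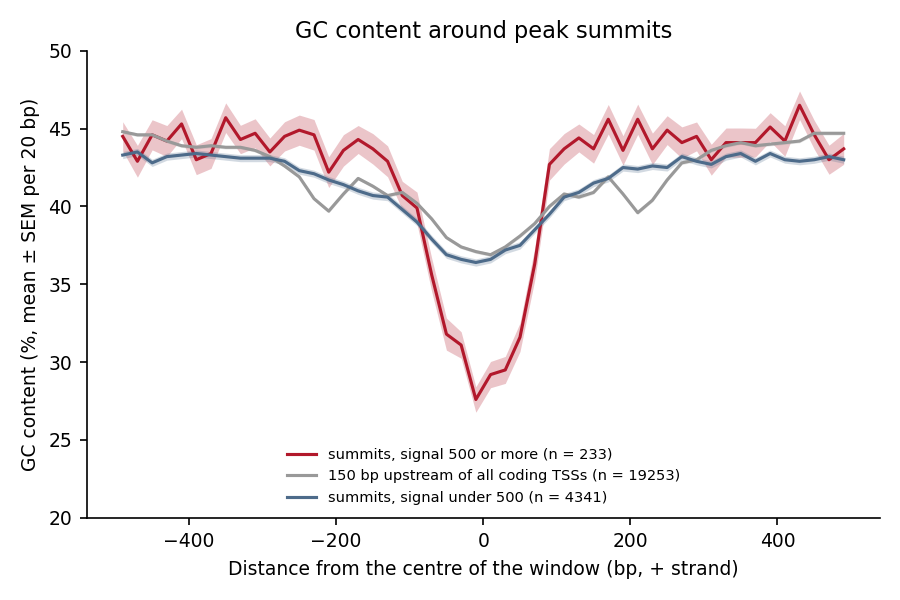
Mean GC content per 20 bp (y axis, %, from 20 to 50, shading ± SEM) against distance from the centre of the window (x axis, bp, plus strand) for 233 strong summits (red), 4341 weaker summits (blue) and 19253 positions 150 bp upstream of coding TSSs (grey). The red line falls to 27.6% next to the summit and is at or above 42.7% from 80 bp after it on, while the blue line falls only to 36.4%.

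GC content varied widely among strong peaks. It was under 30% in 79 of them (33.9%, 27.9 to 40.4), against 17.6% (16.5 to 18.8) of peaks under 500. The lowest values were 19% between CG1602 and PIG-G, 20% at CG18428 and 20% between 140up and Polr2B, which encodes a core subunit of RNA polymerase II. Only 6 strong summits had 50% or more (2.58%, 0.951 to 5.52, against 8.87%). These were at fkh, a forkhead factor gene (64.5%), RpL7 (56%), lncRNA:let7C (53%), Syp (51%), RpL23A (50%) and yps (50%). Of these 6, Syp and lncRNA:let7C were also among the 5 peaks higher in replicate 3.

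The longest A/T run in 200 bp had a median of 14 bp at strong summits, from 4 to 35 bp, and 11 bp both at peaks under 500 and upstream of all coding TSSs. Longer runs go with lower GC content, and the 2 were not separated. Runs of 15 bp or more were present at 43.3% of strong summits, 27.9% of the others and 26.3% of upstream windows. The share of bases that the genome file marks as repeats or low-complexity sequence was 25.6% at strong summits and 20.7% at the others.

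All words of 6 letters were counted on either strand, 2080 in all, and the one whose share differed most was TTAAAA. It was present at 64.8% of strong summits, 43.3% of peaks under 500 and 42.7% of windows upstream of coding TSSs. Of the 20 words most raised in share at strong summits, 18 contained no G or C. Of the 20 most lowered, 19 contained at least 2. Words share letters and windows share base composition, so these are not separate results.

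A set of 16 motifs was searched on either strand of the 200 bp at each summit. The TATA-like word TATAAA was present at 45.9% (39.4 to 52.6) of strong summits, 33.3% (31.9 to 34.8) of peaks under 500 and 31.2% of windows upstream of all coding TSSs. It was among the 20 words most raised in share at strong summits, 18 of which contained no G or C. Several of these words differed more than TATAAA, such as TTAAAA (64.8% against 43.3% of peaks under 500). Strong summits also had lower GC content, and the part of base composition in the TATAAA share was not tested. TATAAA was also in 45.9% of the 233 strongest summits of replicate 1 alone and 45.1% of those of replicate 3. These are largely the same peaks (220 and 204 of the 233 strong ones), so the shares are not separate results. ACAAT, a core recognised by SRY-type HMG boxes, was present at 52.4% (45.7 to 58.9), 49.8% and 47.0%, values whose intervals overlap for strong and weaker peaks. The strongest peaks with TATAAA were those in Trl, at CG18428 and at CG11309, and the strongest with ACAAT those in Trl, at Ugalt and at DNAlig3.

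For the other motifs the shares at strong and weaker peaks were closer or low. The initiator-like words CTTTT and TCAGT were at 67.4% and 30.5% of strong summits, against 63.1% and 31.6% of peaks under 500. CGATA, the core of BEAF sites, was at 24.9% against 30.9%, and TATCGATA, the DNA replication-related element (overlapping CGATA), at 2.58% against 3.20%. The A tract AAAAAAAA was at 15.5% against 13.3%, and TATATATA at 4.29% against 3.80%. CACACACA was at 2.58% against 5.23%, the E-box CACGTG at 1.72% against 2.33%, and the AP-1 site TGAGTCA at 2.15% against 2.12%, with its strongest peaks at CG18428, SLC5A11 (1235) and Hmg-2 (727.7). The core promoter word GGTCACACT was at 0.429% against 1.34%, AGGTGGCG, a CTCF core, at 0.429% against 0.599%, and CAGGTAG, bound by Zelda in embryos, at 0 against 0.852%. In windows upstream of all coding TSSs the shares, in the order just given, were 63.3%, 29.7%, 31.2%, 3.61%, 12.4%, 3.89%, 3.99%, 2.21%, 1.79%, 1.52%, 0.499% and 1.19%.

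GAGA words were present at a larger share of strong than of weaker peaks in 500 bp, but not in the central 200 bp. The 500 bp window contains the 200 bp one, so a share cannot fall with width, and the flanks were not counted alone. Strong summits also had lower GC content in the central 200 bp, and the part of base composition was not tested. GAGAG, the site of the GAGA factor, was present in the central 200 bp of 23.2% of strong peaks (17.9 to 29.1) and 25.9% of the others. In 500 bp it was present in 62.7% (56.1 to 68.9) against 54.4% (52.9 to 55.9), and upstream of all coding TSSs in 45.0%. The longer repeat GAGAGAGA, which contains GAGAG, was in the central 200 bp of 1 strong peak (0.429%, against 3.25%) but in the 500 bp of 31 (13.3%, 9.22 to 18.4, against 9.28%).

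Strong summits within 500 bp of a TSS marked 242 of 13945 protein-coding genes, a background of 1.74%. Any IDR summit marked 2996, a background of 21.5%. Of these 2996 genes, 8.08% had a strong summit. Of the 242, 10 are pre-mod(mdg4) genes, the trans-spliced pieces of the insulator gene mod(mdg4), all at a single peak. The strong peaks had no gene within 500 bp in 60 cases, 1 gene in 96, 2 in 74, 3 in 2 and 10 in 1. Beside coding genes, 15 non-coding RNA genes and 1 tRNA gene, tRNA:Tyr-GTA-1-8 (signal 707.7), were marked. Gene groups below are counted against these backgrounds, and no set test was made.

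Protein synthesis was represented by small parts of large groups. Of 86 cytoplasmic ribosomal protein genes, 61 had an IDR summit and 5 a strong one (8.2% of the 61, near the background of 8.08%). Among these were RpS27 (822.9), RpL7 (694.2), RpL23A (531.0) and RpL34b (506.9), and these 4 had GC contents of 41.5% or more. Of 73 mitochondrial ribosomal protein genes, 32 had an IDR summit and 5 a strong one (15.6% of the 32). The 5 were mRpL41 (1726), mRpS10 (1359), mRpS23 (1219) and mRpL23 (1125), all above 1000, and mRpL24 at 724.6. The first 4 of these were stronger than any of the cytoplasmic members named, and the GC contents of all 5, 26.5% to 36%, were lower than theirs. The peaks at mRpS10, mRpS23, mRpL23 and mRpL24 were shared with Art3, CenG1A, CG9004 and betaggt-I. At mRpS23 and mRpL24 the nearest TSS was that of the neighbour, and by nearest TSS only 3 mitochondrial genes remained. Of the cytoplasmic members, RpS27 and RpL7 at least also shared their peak, with Nup37 and Ripalpha. Of 58 translation factor genes 2 had a strong summit, eIF4EHP and eIF6, both shared with a neighbouring gene. None of 35 aminoacyl-tRNA synthetase genes did, although 12 had an IDR summit.

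Genes of chromatin proteins were present in several groups. Of the 17 HMG-box genes listed, 7 had an IDR summit and 2 a strong one. Sox14, an ecdysone-induced factor gene, had 1160 in the pooled list, 753.3 in replicate 1 and 408.4 in replicate 3, and bbx had 818.9, 470.2 and 348.2. The intronic summits at HmgD and HmgZ and in cic lay farther from a TSS and are not in this count. Hmg-2 is not counted either, although it had a strong summit (727.7) 351 bp upstream of its TSS. Of 19 genes of the GAGA factor and insulator proteins, 13 had an IDR summit and 2 a strong one, Chro (1193) and Cp190 (760.6), beside the intronic peak in Trl and the peak of 681.2 in mod(mdg4). Of 32 Polycomb, trithorax and remodeler genes, 17 had an IDR summit and 3 a strong one: brm, the SWI/SNF ATPase gene, at 1074, shared with Arl1, ph-p at 809.1 and E(z), the histone H3 lysine methyltransferase gene, at 610.5. Introns or exons of osa, a further SWI/SNF gene, held peaks of 886.0 and 623.4.

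Of 38 heat shock and chaperone genes 12 had an IDR summit and 3 a strong one, Hsp83 (982.9), Hsp27 (715.7) and Hsc70-5 (539.7). Of 8 circadian clock genes 6 had an IDR summit and cry, the blue-light receptor gene, a strong one (1032, with 648.1 in replicate 1 and 376.5 in replicate 3). Of 23 insulin and TOR genes 11 had an IDR summit and Pi3K21B a strong one (541.4), beside the peaks farther from a TSS in Lk6 (1549) and near foxo (516.1). The 23 genes did not include the TOR inhibitor gene Sesn (773.2) or REPTOR (848.6), the gene of a TOR-controlled factor. Both had a strong summit, so the count does not cover all TOR genes. Of 20 autophagy genes 11 had an IDR summit and Atg2, shared with CG12093, a strong one (505.6). Of 63 genes of RNA polymerase II, TFIID and Mediator 24 had an IDR summit and Polr2B a strong one (513.7).

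No strong summit lay within 500 bp of a TSS of 48 proteasome, 91 respiratory chain, 39 splicing, 17 ecdysone response, 40 DNA replication and repair or 33 vacuolar ATPase genes, although each group had IDR summits, from 8 in the ecdysone response to 23 in the respiratory chain. The 17 ecdysone response genes did not include Sox14, the ecdysone-induced factor gene with a strong summit (1160), so this 0 does not cover all such genes. Farther from a TSS, strong peaks lay in or nearest Cyt-c-p (631.1) and COX7AL2 (545.5) of the respiratory chain, the ecdysone response gene ftz-f1 (520.4) and DNAlig3 (1784). Neither did one lie at 274 snoRNA, 32 snRNA or 20 early germline genes. Of the early germline genes 5 had an IDR summit. Of 237 chemoreceptor genes 3 had any IDR summit, of 123 cuticle protein genes 1, and of 34 genes of the spermatocyte programme and of spermatids none. These 34 did not include tHMG1, which had an IDR summit (131.6) 410 bp from its start. With a background of 1.74%, a group of such size would hold few strong summits in any case, so a count of 0 says little for the smaller groups.

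The X chromosome held few strong peaks. There were 20 on X (8.58%, 5.32 to 12.9), against 582 of the peaks under 500 (13.4%, 12.4 to 14.5), while X makes up 17.6% of the length of the 6 arms counted. This was 0.85 strong peaks per Mb on X, 2.13 on 2L, 1.78 on 2R, 1.85 on 3L and 2.06 on 3R. Peaks under 500 were also sparser on X, at 24.7 per Mb against 32.9 to 36.0. Males carry a single X, so X chromatin enters the experiment at a lower copy number than autosomal chromatin, and occupancy per copy and copy number cannot be told apart in these lists. The interval of the strong share reaches to 12.9%, just above the lower bound of the weaker share. Chromosome 4 held none of the strong peaks (upper exact bound 1.57%) and 12 of the others (0.276%), so this count of 0 says little. The strongest peak on X was at Ugalt, followed by Gapdh2.

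The median spacing of neighbouring strong summits was 340098 bp, and 4 neighbouring pairs lay within 2 kb of each other. The closest were 2 summits 200 bp apart in CG9663 (1291 and 721.7) within a single interval, and 2 in tara 785 bp apart (540.4 and 521.8). The others were a pair near COX7AL2 and CG31668, 1173 bp apart (545.5 and 930.9), and a pair near jp and lncRNA:CR44149, 1191 bp apart (720.5 and 559.6). In all, 19 neighbouring pairs lay within 10 kb. At lncRNA:CR45054 there were 3 strong peaks (797.6, 776.0 and 514.1), and introns of simj held 3. Another summit of the pooled list, at any signal, lay within 1 kb of 54.9% of strong summits and 70.9% of the others.

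The tagged gene itself was not among them. The nearest IDR summit to the start of tHMG1 was 410 bp away with a signal of 131.6, at place 2684 of the list. The nearest strong peak, at CG31431 (588.4), was 621302 bp away. For tHMG2 these distances were 1534 and 622426 bp.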

How the data were processed

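ChIP-seq peak lists of 2 replicates of 1 group were analysed as deposited (build dm6; only a count of peaks was taken from dm3). Column 7 is the authors' signal, not scaled between lists, and the −log10 q-value in the deposited IDR list was 4.08 at every peak, so it ranks nothing. Per the deposited notes on file origin, each replicate list was made from that replicate's alignment and 1 further file, and the IDR list from both replicate lists and a pooled list; the aligner, caller, filters and threshold were not given in the sources used here. Read depth is unknown.

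Peaks of 500 or more were matched to replicate rows overlapping by 1 bp or more. Summits were annotated with Ensembl release 115, and sequence was read from the RefSeq release 6 assembly; windows on arm 2R were not among those considered for printing. Intervals are exact (Clopper-Pearson, 95%) and cover counting error over peaks. No test was run: there is 1 group, and its own signals chose the peaks. Scripts ran in Python 3.11.15 with pandas 2.3.3, intervals came from scipy 1.17.1, and figures from matplotlib 3.10.9; the code passed known-answer checks on simulated data. 1 symbol of the gene lists, calypso, was not matched.

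Members, the 25 gene groups and the motifs were chosen with earlier results of these data known; windows upstream of TSSs, 6-letter words, A/T runs, signal ranges and 2 further gene groups were added after values were seen. Named are the genes at the 20 strongest peaks, the strongest per arm and annotation class, the 3 peaks on either side of the limit, up to 4 group members (all of the mitochondrial ribosomal protein, nutrient and stress members), extremes of replicate ratio and GC content, the strongest peaks holding raised motifs and the closest pairs. A gene that meets this rule is not reported here.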

Additional observations from a re-analysis of the deposited data

How the results depend on the processing

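Read depth, the peak caller and the control are unknown, so signals cannot be turned into occupancy, and the 2 replicates give no test. A minimum of 1000 left 44 strong peaks and 400 gave 381. The promoter share was 60.5% with a window of 250 bp and 84.1% with 1000 bp, but 71.1% to 75% with minimums of 400 and 1000. Taking the same number of strongest peaks from a single replicate gave a promoter share of 73.4% to 73.8%, an X share of 6.87% to 8.15%, a mean GC of 33.3% to 34.2% and a repeat-marked share of 25.3%. Those sets hold most of the same peaks (220 of the 233 in replicate 1 and 204 in replicate 3), so similar values follow in part from the overlap. Presence among the strongest peaks of both replicates was 92.3% when at least 50% of the peak had to overlap and 97.4% when summits had to lie within 50 bp. Mean GC was 29.7% in 100 bp and 39.7% in 500 bp windows, 34.3% away from promoters and 32.4% at summits 100 to 250 bp upstream of a TSS, a subset chosen after seeing the data. The repeat-marked share was 29.5% in 100 bp and 19.2% in 500 bp windows, 25.8% at promoters, 25.3% away from them and 26.2% in that subset. Counts of gene groups moved in 14 of 84 recomputed values and motif shares in 24 of 64. No paired analysis was possible because there is a single group and no result comes from a test.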

Other observations

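Genes of sugar use and of the response to nutrients and stress recurred among the strong peaks, and 2 lists were written after this was noticed, so their counts are descriptions only. Of 20 genes of glycolysis and glycogen, 17 (85%) had an IDR summit within 500 bp of a TSS and 4 (20%) a strong one. The backgrounds over all coding genes were 21.5% and 1.74%. Gapdh2 had 1334 in the pooled list, 787.6 in replicate 1 and 544.3 in replicate 3. Eno, the enolase gene, had 1091, 700.4 and 386.4. Glyp, glycogen phosphorylase, had 969.9, 573.2 and 385.0, and Hex-A, a hexokinase gene, had 729.5, 417.0 and 319.3. All 4 summits lay 168 to 199 bp from the TSS, with GC contents of 28% to 31%.

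Of 22 nutrient and stress responders, 15 (68.2%) had an IDR summit and 7 (31.8%) a strong one, against the same backgrounds. With a window of 250 bp the strong ones were 4. The 7 were cu (1388), related to the deadenylase-like protein Nocturnin, the lipid regulator Lpin (1022), the TOR-controlled factor REPTOR (848.6), Drat (838.4), the TOR inhibitor Sesn (773.2), the stress kinase p38a (661.8) and the stress factor Atf3 (524.5). Strong peaks farther from a TSS lay by foxo (516.1, at 3346 bp) and by cbt (1347, in an intron of ush).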
